A study of Bos taurus with 12 samples.

Results

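Collagens and the secreted or membrane-bound proteases that cut extracellular matrix were examined in whole-blood DNA of 12 cows. A gene was counted as a member when its symbol began with COL and a chain number, with ADAM, or with MMP and a number, and when it held at least 1 deposited cytosine in its promoter, exons, introns, untranslated regions or just downstream. The gene that holds the cytosine was taken from the annotation text of the deposited table, not the nearest gene. This gave 52 genes with 645 cytosines, called sites here, of 10773 genes with 92535 non-intergenic sites and of 216990 sites in all. The members were 19 collagen genes with 275 sites, 26 ADAM, ADAMTS and ADAMTSL genes with 351 sites, and 7 MMP genes with 19 sites, on 24 chromosomes. The RefSeq gene table for cattle lists 111 symbols of this form, and the other 59, MMP9, MMP14, COL1A1 and ADAM17 among them, had no site in the table and are not analysed here.

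Fibrillar collagens such as types I and V form the tensile fibres of connective tissue, type IV forms the sheet of basement membranes, and type VI forms beaded filaments around cells. ADAM proteins are membrane-anchored metalloproteases that shed cell surface proteins, some of them without a working catalytic site and active in cell adhesion and sperm function. ADAMTS enzymes are secreted and cut procollagens and proteoglycans, ADAMTSL proteins resemble them without the protease domain, and MMPs degrade most matrix proteins. Most of these genes are used by connective tissue and reproductive tissue rather than by leukocytes, and methylation of a gene body in blood is not a measure of its use elsewhere.

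Blood was drawn once per cow, from animals aged 3 to 8 years on the same farm. The 6 subfertile cows left the herd within a year because of reproductive complications that were not recognised at sampling, and the 6 fertile cows stayed with no recorded fertility problem. The fertility group is what the labels enter as the genotype of each cow, and no allele or treatment is named for either group. DNA was converted enzymatically, which reads 5-methylcytosine and 5-hydroxymethylcytosine alike, and the table gives the percent methylated per site and cow with no read numbers, so depth and the counting error of each value are unknown. The table holds only sites that the authors had selected for a difference between these same cows, with an absolute deposited difference above 25 percentage points. Every p-value below therefore describes the spread among these cows and is not independent evidence of a difference. The letters that head the columns of the 2 groups are not explained in the sources used here. Columns were matched to cows by the number in the sample titles, and groups follow the labels of those cows, not the letters. Only if the labels themselves were reversed would all directions below turn.

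The overall level of these genes was alike in the groups. The mean of the members' gene means was 58.6% ± 1.52 in subfertile cows and 58.7% ± 2.32 in fertile cows (SD, n = 6 each), against 58.5% and 57.8% over all genes. Between 0.62% and 7.44% of the members' sites lacked a value in a cow, the most in subfertile cow 3. The highest correlation between cows was 0.502 over the table's sites among 66 pairs, and at most 19.4% of values were identical in a pair. The cells behind the values could not be checked by expression, because no RNA was measured. Of 47 blood and fibroblast marker genes listed, 21 held a site, none of them a monocyte or erythroid marker, and 0 of 19 tested passed at an adjusted p of 0.05 in limma, with 10 at an unadjusted p under 0.05 (40.6% of all genes). The groups did not overlap for 2 of the 19, against 3.38% of all genes. CORO1A, a leukocyte gene, read 81.3% ± 9.40 in subfertile and 44.9% ± 11.4 in fertile cows at its 1 site. MPO, a neutrophil gene, read 51.7% ± 27.1 and 87.3% ± 6.84 at its 1 site. LTF, the other neutrophil gene tested, went the other way with overlapping groups. It was higher at 43 of 46 sites, with 86.9% ± 1.40 in subfertile and 51.5% ± 31.7 in fertile cows. The natural killer genes KLRF1, PRF1 and GZMB were lower in subfertile cows at an unadjusted p under 0.05 in limma. NCR1, the other natural killer gene listed, was higher in subfertile cows, at 72.0% ± 13.8 against 56.1% ± 21.9, and did not pass that threshold. These markers were named after their values were seen, and their part in the results below was not tested. Blood holds a mixture of cell types, and a change in their shares cannot be told apart from a change within a type.

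Higher and lower sites were almost equally frequent. Of the 645 sites, 318 (49.3%) were higher in subfertile cows, against 50.6% of all non-intergenic sites, and the median absolute difference was 33.9 points against 33.4. Introns held 616 sites (95.5%, against 83.2% of all non-intergenic sites) and promoters 18 (2.79%, against 12.99%). The first intron held 14.1% of the members' intron sites, against 25.1% overall. The sites were concentrated in a few genes: ADAMTSL1 alone held 126 (19.5%), the 10 genes with the most sites held 407 (63.1%), and 9 members held 1 site each. At 448 sites (69.5%, against 69.7% overall) the lowest cow was under 10% while the highest was over 80%, and these are called wide-range sites below.

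**Figure D1:**
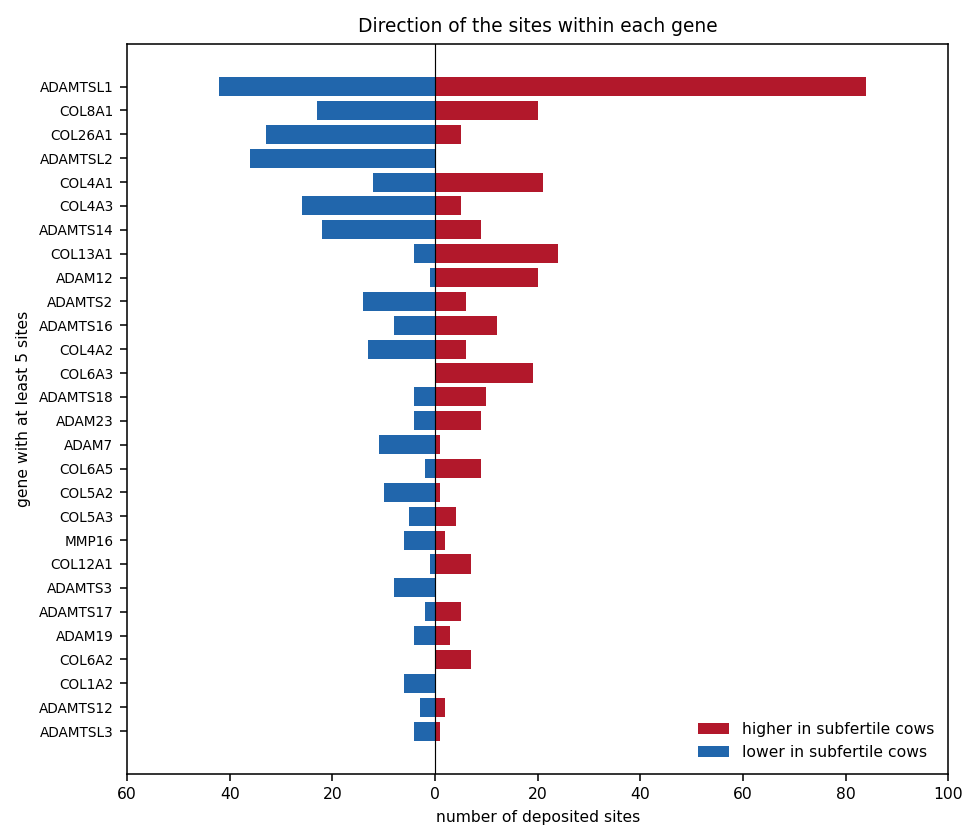
Number of deposited sites per gene (x axis) that were higher (red, to the right) or lower (blue, to the left) in subfertile than in fertile cows, for the 28 members with at least 5 sites (y axis). ADAMTSL1 has 84 higher and 42 lower sites, whereas all 36 sites of ADAMTSL2 are lower and all 19 of COL6A3 are higher.

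Gene means were tested with limma on log2((percent + 5)/(100 − percent + 5)), with Benjamini-Hochberg adjustment over 9891 genes that had a mean in all 12 cows. At an adjusted p of 0.05, 0 of 46 tested members passed, against 12 genes (0.121%) overall. At an unadjusted p under 0.05 in the same limma fit, 21 members passed (45.7%), 10 higher and 11 lower, against 40.6% of all genes (21.6% higher and 18.9% lower). The gene means of the groups did not overlap for 2 tested members, COL13A1 and ADAMTS5, against 3.38% of all genes. The median difference of the tested members was -1.99 points, and that of all tested genes was 1.78. The count depended on which sites were averaged. With only sites whose deposited difference was at least 40 points, 14 of 24 members passed (43.7% of all genes), and without the wide-range sites 17 of 34 passed (42.2% of all genes). The first filter uses the difference between these groups and the other the range over these cows, so neither count is separate evidence.

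**Figure D2:**
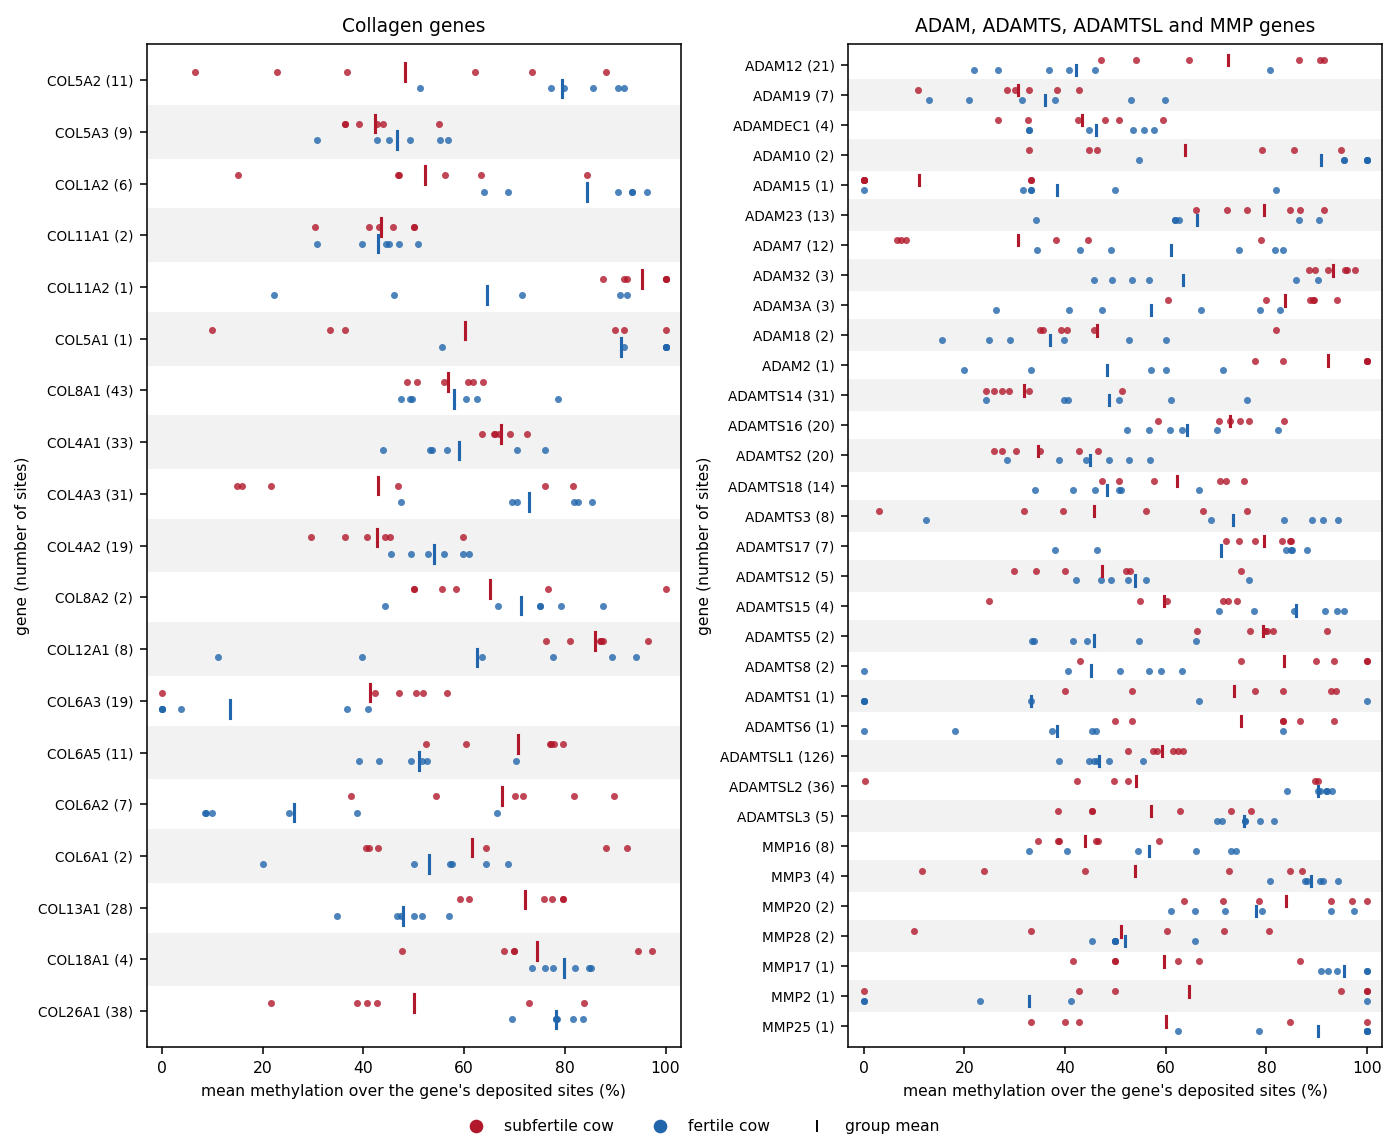
Mean methylation (%, x axis) over each gene's deposited sites, per cow, for the 52 members (y axis, with the number of sites in parentheses). Each red point is a subfertile and each blue point a fertile cow, and vertical ticks are group means; the points of COL13A1 and ADAMTS5 form groups that do not overlap, whereas most other genes show overlapping groups.

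The collagen VI genes were the class with the most one-sided sites. Of 39 sites in 4 genes, 36 were higher in subfertile cows, and the gene means were higher by 8.56 to 41.3 points, with a median of 23.8 against 1.78 over all genes. At an unadjusted p under 0.05 in limma, 3 of the 4 were higher (21.6% of all genes) and none lower (18.9%), and 0 of 4 passed after adjustment. COL6A2, which encodes the alpha-2 chain (ENSBTAG00000019269, chr1:145807169-145837649, plus strand, ARS-UCD1.2 as for all positions here), was higher at 7 of 7 sites. Its mean was lowest at 37.6%, with a median of 71.0% and a highest value of 89.7%, in subfertile cows, and 8.55%, 17.6% and 66.5% in fertile cows. Apart from fertile cow 2, which lay inside the subfertile range, the only overlap was between subfertile cow 3 at 37.6% and fertile cow 1 at 38.7%. The group means were 67.6% ± 18.9 and 26.3% ± 23.1 (SD, n = 6 each), a log-ratio difference of 2.64 ± 0.76 (SE) with an adjusted p of 0.0688 in limma.

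COL6A3, the alpha-3 chain (ENSBTAG00000030190, chr3:116782465-116855219, minus strand), was higher at all 19 of its intronic sites. The sites lie in a stretch of 28.4 kb. Fertile cows 2, 4 and 6 and subfertile cow 3 read 0% at every site with a value, which were 13 of the 19 sites in subfertile cow 3. Fertile cow 1 read 0% at 17 of 19 sites and had a mean of 3.84%. Fertile cows 3 and 5 had means of 36.8% and 40.9%, and the other 5 subfertile cows had means from 42.3% to 56.6%. The group means were 41.4% ± 20.8 and 13.6% ± 19.7, with an adjusted p of 0.117 in limma, and the groups overlapped. Correlations between CpGs, here and below, were taken over all CpG pairs of a gene after each group's mean was subtracted at every site. On this measure the CpGs of COL6A3 moved together over cows, with a median correlation of 0.755. The median was 0.256 over 2169 genes with at least 10 sites. The sites share libraries and stretches of DNA, so this is a description.

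COL6A5, another collagen VI chain, whose values are given after they were seen, was higher at 9 of 11 sites, with 70.8% ± 11.4 against 51.1% ± 10.8 and an adjusted p of 0.0954 in limma. COL6A1, which lies beside COL6A2 on chromosome 1 with the nearest sites 131 kb apart, had 2 sites of opposite direction and means of 61.6% ± 24.0 and 53.0% ± 17.4.

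Promoter means, over genes with at least 3 sites within 3000 bases of a transcript start, could be tested for 2 members. COL6A2 passed at an adjusted p of 0.0480 in limma, and MMP3 had an adjusted p of 0.0548, against 15.9% of 1292 genes that passed. The 4 promoter sites of COL6A2 lie 252 to 2943 bases from the start of one of its transcripts, between 145807421 and 145823660, and all were higher in subfertile cows. The cows read 26.3% to 91.0% in the subfertile group and 4.17% to 55.6% in the fertile group, and the groups overlapped through subfertile cows 1 to 3 and 5 and fertile cows 1 and 2. The means were 60.0% ± 24.0 and 20.2% ± 20.5. The call was lost without any cow other than fertile cow 2, with adjusted p from 0.0440 to 0.0718 over the 12 limma fits that each left out 1 cow. In those fits between 4 and 182 promoters of all genes passed, against 205 with all cows. The COL6A2 call was also lost with 1 point added (adjusted p 0.0550 in limma) and with all genes that hold at least 1 promoter site (0.0795).

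Fibrillar collagen sites were mostly lower in subfertile cows, 23 of 30 in 6 genes. At an unadjusted p under 0.05 in limma, 2 of 5 tested genes were lower (18.9% of all genes) and none higher (21.6%), near the 40.6% of all genes in either direction, with 0 of 5 after adjustment. The median gene difference was -31.0 points. COL1A2, the alpha-2 chain of type I collagen (ENSBTAG00000013472, chr4:11776554-11812997, plus strand), was lower at 6 of 6 intronic sites. Subfertile cows had a lowest value of 15.2%, a median of 51.7% and a highest value of 84.4%, and fertile cows 64.0%, 92.0% and 96.2%. Only subfertile cow 4 lay above any fertile cow, and it lay above 2 of them. The means were 52.2% ± 22.8 and 84.4% ± 14.1, with an adjusted p of 0.0786 in limma.

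COL5A2, a type V chain that helps start fibril assembly (ENSBTAG00000027020, chr2:7198509-7357287, plus strand), was lower at 10 of 11 sites, with means of 48.3% ± 31.4 and 79.4% ± 14.9 and an adjusted p of 0.112 in limma. Its subfertile cows were spread from 6.61% to 88.1%, whereas 5 of 6 fertile cows lay between 77.3% and 91.7% and fertile cow 6 read 51.3%. All 9 sites of its first intron were lower. The 1 higher site, at chr2:7323654 in intron 15, had groups that did not overlap, with 83.3% ± 11.0 against 53.9% ± 11.8. This was also the only site of COL5A2 that was not wide-range, so without wide-range sites its direction turned (log-ratio difference 1.98, adjusted p 0.0197 in limma).

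Network and basement membrane collagens did not share a direction, with 53 higher and 75 lower sites in 5 genes and 0 of 5 passing after adjustment in limma, 1 at an unadjusted p under 0.05 (40.6% of all genes). COL4A1 and COL4A2 encode the chains that make up the common type IV network and lie beside each other on chromosome 12, with their nearest sites 48.4 kb apart. COL4A1 (ENSBTAG00000012849, chr12:84863917-84995777, minus strand) was higher at 21 of 33 sites, with 67.4% ± 3.13 against 59.0% ± 11.98. Its subfertile cows lay between 63.5% and 72.6%, inside the fertile range of 43.9% to 76.1%. COL4A2, named because a region of it passed, was lower at 13 of 19 sites, with 42.7% ± 10.1 against 54.1% ± 6.02. The limma adjusted p was 0.339 for COL4A1 and 0.199 for COL4A2, and the opposite signs were not tested against each other. The direction of COL4A1 turned with the nearest gene symbol (log-ratio difference -0.054).

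COL4A3, a chain of the specialised basement membrane of the kidney and lung (ENSBTAG00000021316, chr2:115318013-115478018, plus strand), was lower at 26 of 31 sites. Its subfertile cows split widely, with cows 1 and 3 at 76.0% and 81.6%, cow 4 at 46.8%, and cows 2, 5 and 6 between 14.8% and 21.7%. Fertile cows had a lowest value of 47.5%, a median of 76.2% and a highest value of 85.4%. The means were 42.8% ± 30.3 and 72.9% ± 14.1, with an adjusted p of 0.113 in limma.

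COL8A1, a short-chain network collagen of vessel walls (ENSBTAG00000013662, chr1:43902264-44073696, plus strand), had means of 56.9% ± 6.21 and 58.0% ± 11.96, closer than the spread between cows, with an adjusted p of 0.872 in limma. That mean was made of sites of both directions. In the first intron 17 of 25 sites were lower, and in the second 12 of 17 were higher. The site at chr1:43913420 in the first intron did not overlap between groups, at 87.7% ± 7.20 in 6 subfertile cows against 30.7% ± 22.5 in the 5 fertile cows with a value. The sign of the gene mean turned under several alternatives, as given in the closing section.

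COL13A1, a transmembrane collagen of cell adhesion sites and the neuromuscular junction (ENSBTAG00000011741, chr28:26096194-26246128, plus strand), was higher at 24 of 28 intronic sites. Subfertile cows read at lowest 59.1%, at the median 76.7% and at highest 79.7%, and fertile cows 34.8%, 48.8% and 57.1%. Every subfertile cow was above every fertile cow. The means were 72.2% ± 9.50 and 48.0% ± 7.45, a log-ratio difference of 1.38 ± 0.39 (SE), with an adjusted p of 0.0664 in limma. Its second intron held 17 of the sites, 15 of them higher. At chr28:26148529 in that intron the cows read 56.3% to 100% against 0% to 50%, a difference of 62.0 points and the largest among the members' sites. The single sites of COL13A1 did not move together, with a median correlation of 0.0968 between CpGs.

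COL12A1, a FACIT collagen that coats fibrils (ENSBTAG00000020056, chr9:14663442-14776366, minus strand), was higher at 7 of 8 sites. Its subfertile cows lay between 76.2% and 96.5%, and its fertile cows between 11.1% and 94.2%, so the difference came with a wide fertile group (85.9% ± 6.88 against 62.6% ± 32.0, adjusted p 0.182 in limma). COL26A1, a little-studied collagen first found in reproductive tissue (ENSBTAG00000011818, chr25:35220789-35383571, minus strand), was lower at 33 of 38 sites. Subfertile cows 3 and 4 read 83.8% and 73.0% and the other 4 between 21.7% and 42.8%, whereas fertile cows lay between 69.5% and 83.7%. The means were 50.1% ± 23.4 and 78.3% ± 4.86, with an adjusted p of 0.0885 in limma. Its intron 3 held 33 sites, of which 30 were lower.

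**Figure D3:**
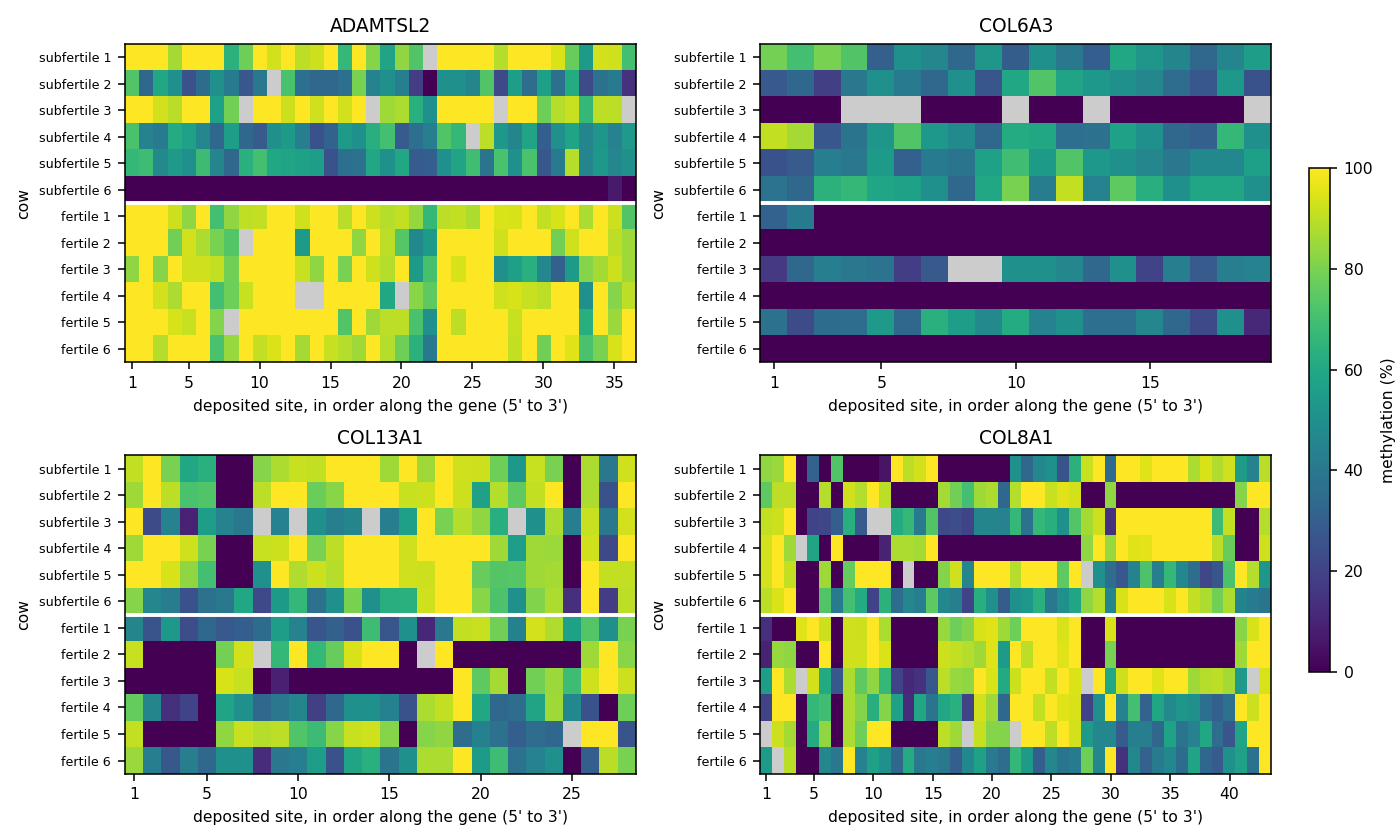
Percent methylated (colour, 0 to 100) in each cow (rows, subfertile above and fertile below the white line) at each deposited site in order from 5' to 3' (columns) of ADAMTSL2, COL6A3, COL13A1 and COL8A1; grey marks a missing value. Subfertile cow 6 is at 0% at 35 of 36 sites of ADAMTSL2, and fertile cows 2, 4 and 6 are at 0% at all 19 sites of COL6A3, whereas in COL8A1 the same cow can be near 0% in one stretch and near 100% in another.

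Catalytic ADAM genes had 25 higher and 10 lower sites in 5 genes, of which ADAM12 held 20 of the higher ones. None passed after adjustment in limma, with 1 higher and 2 lower of 5 at an unadjusted p under 0.05 (21.6% and 18.9% of all genes). ADAM12, a sheddase of growth factor precursors that is abundant in placenta (ENSBTAG00000012444, chr26:45513531-45903613, minus strand), was higher at 20 of 21 sites. Subfertile cows read at lowest 47.2%, at the median 75.5% and at highest 91.5%, and fertile cows 22.0%, 38.8% and 80.6%. Fertile cow 5 alone reached into the upper subfertile range, and the other 5 were at most 46.0%, below every subfertile cow. The means were 72.4% ± 19.6 and 42.2% ± 20.8, with an adjusted p of 0.0936 in limma.

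ADAM10, the sheddase of Notch and many other membrane proteins (ENSBTAG00000005481, chr10:51595563-51677105, plus strand), held 2 sites, 1 of them 2201 bases from a transcript start, and both were lower. Its fertile cows read 95.5% to 100% apart from fertile cow 6 at 54.6%, and its subfertile cows 32.9% to 94.7%. The means were 63.9% ± 25.6 and 90.9% ± 17.9, with an adjusted p of 0.0901 in limma.

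ADAM genes without a working protease site, 6 with 34 sites, had 18 higher and 16 lower sites. Of 5 tested, 2 were higher and 1 lower at an unadjusted p under 0.05 in limma (21.6% and 18.9% of all genes). After adjustment 0 of 5 passed. ADAM7, named after its values were seen, was lower at 11 of 12 sites. Its means were 30.7% ± 28.9 in subfertile and 61.0% ± 21.3 in fertile cows, with an adjusted p of 0.113 in limma. The class also included a cluster on chromosome 27. ADAM32, a testis protein (ENSBTAG00000023146, chr27:34246204-34420189, plus strand), was higher at 3 of 3 sites, with subfertile cows between 88.5% and 97.6% and fertile cows between 45.8% and 90.2%. Fertile cows 5 and 6 overlapped the subfertile range. The means were 93.3% ± 3.69 and 63.5% ± 19.4, with an adjusted p of 0.0614 in limma. Its neighbours in the cluster, ADAM2, ADAM3A and ADAM18, known for roles in sperm, are given after their values were seen, and held 1, 3 and 2 sites with differences of 43.8, 26.5 and 9.31 points. The 2 sites of ADAM18 went in opposite directions, and subfertile cow 1 and fertile cow 5 had a value at only 1 of them. The limma adjusted p was 0.0893 for ADAM3A and 0.407 for ADAM18, and ADAM2 was not tested because 2 cows lacked a value. ADAM23, an adhesion protein of neurons (ENSBTAG00000019694, chr2:94711218-94906499, plus strand), was higher at 9 of 13 sites, with 79.5% ± 9.68 against 66.2% ± 20.3 and an adjusted p of 0.292 in limma.

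ADAMTS genes, 12 with 115 sites, had 51 higher and 64 lower sites, and at an unadjusted p under 0.05 in limma 3 were higher and 1 lower (21.6% and 18.9% of all genes), with 0 of 12 after adjustment. ADAMTS5, the aggrecanase of cartilage that also cuts versican in the ovary (ENSBTAG00000000648, chr1:9440973-9491324, plus strand), had the smallest adjusted p of all members, 0.0558 in limma. Its mean rests on 2 sites only. Subfertile cows read at lowest 66.2%, at the median 79.8% and at highest 92.1%, and fertile cows 33.5%, 43.1% and 66.1%. Every subfertile cow was above every fertile cow, though subfertile cow 3 and fertile cow 2 nearly met. The means were 79.3% ± 8.32 and 45.7% ± 12.7, a log-ratio difference of 2.01 ± 0.45 (SE). The neighbouring ADAMTS1, which like ADAMTS5 cuts versican, had 1 site with a difference of 40.2 points and an adjusted p of 0.134 in limma.

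ADAMTS14 and ADAMTS2 both trim the amino-terminal propeptide of fibrillar procollagens. ADAMTS14 (ENSBTAG00000021177, chr28:26827396-26922026, plus strand) was lower at 22 of 31 sites. Its subfertile cows lay between 24.3% and 32.8% apart from cow 4 at 51.4%, and its fertile cows between 24.3% and 76.1%. The means were 31.8% ± 10.04 and 48.8% ± 18.2, with an adjusted p of 0.164 in limma. ADAMTS2 (ENSBTAG00000014665, chr7:2015432-2260856, plus strand) was lower at 14 of 20 sites, with 34.7% ± 8.44 against 45.0% ± 10.3 and an adjusted p of 0.248 in limma. Its direction turned when sites were given to the nearest gene symbol (log-ratio difference 0.37). ADAMTS16, expressed in kidney and gonads (ENSBTAG00000018460, chr20:67808025-68003907, minus strand), was higher at 12 of 20 sites, with 72.8% ± 8.28 against 64.3% ± 10.7 and an adjusted p of 0.327 in limma. ADAMTS8 and ADAMTS15, neighbours on chromosome 29 with the nearest sites 38.7 kb apart and named after their values were seen, differed by 38.5 and -26.1 points, with a limma adjusted p of 0.0786 and 0.0766.

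ADAMTSL1, a matrix protein that resembles ADAMTS enzymes without their protease domain (ENSBTAG00000002997, chr8:25327872-25821153, minus strand), held the most sites and 5 of the 9 regions that passed. It also held 17 of the 65 member regions tested, so 5 of its 17 passed, against 24.4% of all regions. Its gene mean was 59.3% ± 4.04 in subfertile and 46.7% ± 5.44 in fertile cows, with an adjusted p of 0.132 in limma. Subfertile cows lay between 52.5% and 63.4% and fertile cows between 38.7% and 55.4%, and the only overlap was between subfertile cow 6 and fertile cow 5. Of its 126 sites 84 (66.7%) were higher, against 42.4% of the other 66 sites between 25 and 26 Mb of the chromosome. The groups did not overlap at 9 sites (7.14%, against 12.1% of those other sites). Many higher sites were adjacent: the longest run without a lower site had 23 sites over 84.6 kb, chr8:25512953-25597522, with 80.9% ± 5.43 against 46.8% ± 18.4. The run was picked for its direction, so its difference follows from that choice, and runs in other genes are not given here.

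**Figure D4:**
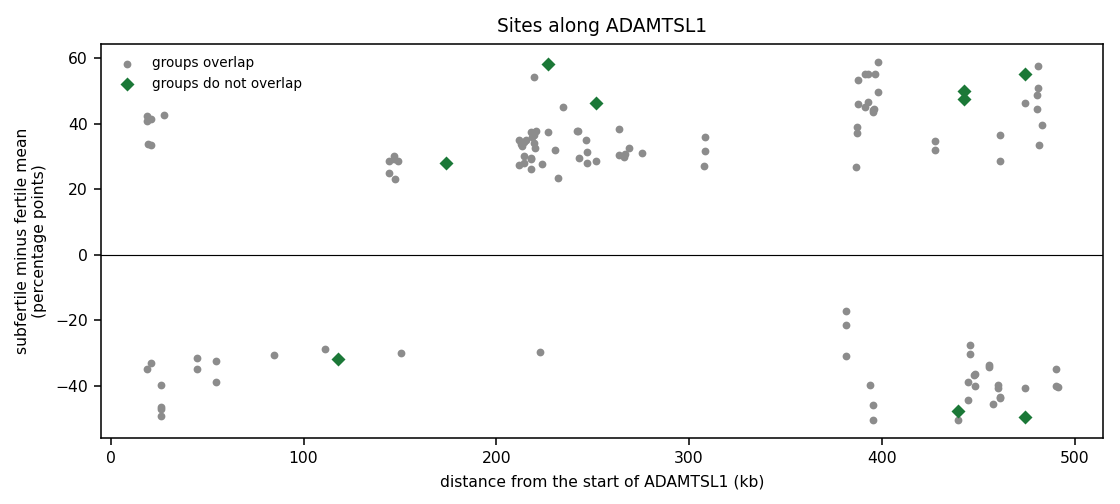
Difference between the group means (subfertile minus fertile, percentage points, y axis) at each of the 126 deposited sites of ADAMTSL1, by distance from the start of the gene (kb, x axis); green diamonds are the 9 sites at which the groups do not overlap. Higher sites fill the middle of the gene, and lower sites lie mostly towards both ends.

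ADAMTSL2, a protein of the fibrillin microfibrils that binds a TGF-beta binding protein (ENSBTAG00000007492, chr11:104419108-104449657, plus strand), was lower at all 36 intronic sites. Subfertile cows 1 and 3 read 89.7% and 90.3%, cows 2, 4 and 5 read 42.4%, 49.8% and 52.4%, and cow 6 read 0.198%. Fertile cows all lay between 84.0% and 93.0%. The subfertile cows therefore sat on 3 levels over a span of sites from 104426427 to 104447078, the upper level inside the fertile range. Subfertile cow 6 was at 0% at 35 of its 36 sites. The means were 54.1% ± 33.6 and 90.3% ± 3.23, with an adjusted p of 0.0930 in limma, and 35 of 36 sites were wide-range. The median correlation between CpGs was 0.830, the highest of the 18 members with at least 10 sites.

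MMP genes were thinly covered, with 19 sites in 7 genes and 3 genes tested, and 14 of 19 sites were lower. MMP3, the stromelysin that cuts proteoglycans and activates other MMPs (ENSBTAG00000037768, chr15:5779177-5785763, plus strand), held 4 sites, 2062 to 2911 bases before its start, and all were lower. Subfertile cows read at lowest 11.7%, at the median 58.2% and at highest 87.1%, and fertile cows 80.6%, 89.4% and 94.2%. Subfertile cows 1 and 6 lay in the fertile range and the other 4 below it. The means were 54.0% ± 32.2 and 88.8% ± 4.65. MMP16, a membrane-type MMP (ENSBTAG00000006877, chr14:74381958-74776968, plus strand), was lower at 6 of 8 sites, with 43.9% ± 8.62 against 56.8% ± 17.3 and an adjusted p of 0.240 in limma. Its direction turned with only sites of at least 40 points (log-ratio difference 3.61, adjusted p 0.0478 in limma). The deposited differences of MMP16 ran from -35.9 to 41.6 points, so this cut could keep only higher sites and fixed the direction. MMP28, MMP17, MMP2 and MMP25, with COL11A2 and ADAM2, lacked a mean in at least 1 cow and were not tested.

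Regions, runs of at least 3 sites with neighbours at most 1000 bases apart, were tested because a long gene can hold both directions. Of 65 member regions in 23 genes, 9 (13.8%) passed an adjusted p of 0.05 in limma, 5 higher and 4 lower, against 24.4% of 17767 regions overall (13.2% higher and 11.2% lower). The members' share was below that background. The groups did not overlap in 2 member regions, against 4.08% of all regions. With 1 point added in place of 5, 1 member region passed, and on plain percent values 16 did. The share of all regions that passed under these settings is not given here, so these counts have no background to be read against.

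The region chr8:25600620-25603166 of ADAMTSL1, over introns 7 and 8, had 11 sites, all higher. Subfertile cows read between 81.8% and 93.6%, and fertile cows between 32.6% and 76.2%, with no overlap. The means were 90.5% ± 4.40 and 55.0% ± 14.7, with an adjusted p of 0.0297 in limma. It passed in each of the 12 fits that left out 1 cow, with adjusted p from 0.0297 to 0.0450. It is region a in the plot of regions, and b to e follow in order of p.

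Region c, chr8:25606910-25609130 in intron 7, had 7 sites and also no overlap, 56.9% to 84.6% against 27.1% to 56.4%, with means of 74.6% ± 9.64 and 42.5% ± 10.3 and an adjusted p of 0.0420 in limma. It passed in 6 of the 12 leave-out fits, and was lost without subfertile cow 1, 3 or 4 or fertile cow 1, 4 or 6. Region b, chr8:25339681-25340685 in intron 26, had 5 sites. Its subfertile cows read 87.8% to 92.4% apart from cow 6 at 43.2%, and its fertile cows 0% to 51.5%, with an adjusted p of 0.0404 in limma that was lost only without subfertile cow 1 (0.0503). Region e, chr8:25578485-25579384 in intron 11, was higher, 80.3% ± 6.83 against 45.1% ± 21.7 (limma adjusted p 0.0447), and passed only without subfertile cow 5, fertile cow 4 or fertile cow 5. Region d, chr8:25795086-25795099 in the first intron, was lower, 18.0% ± 27.1 against 63.4% ± 26.8 (limma adjusted p 0.0445), and passed only without subfertile cow 3 or 6 or fertile cow 5 or 6.

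The other 4 regions that passed lay in ADAM32, COL4A2, COL4A3 and ADAMTS14. The ADAM32 region, chr27:34380437-34380536 in intron 17, holds the 3 sites of the gene described above (adjusted p 0.0427 in limma) and passed without subfertile cow 2, 4 or 5 or fertile cow 5 or 6 only. The COL4A2 region, chr12:85074740-85074890 in intron 2, read 0% in 5 subfertile cows and 24.2% in cow 1, and 35.7% to 58.4% in 5 fertile cows and 0% in fertile cow 2 (adjusted p 0.0431 in limma). It passed only without subfertile cow 1 or fertile cow 2. The COL4A3 region, chr2:115376890-115377521 in the first intron, had means of 24.5% ± 34.0 and 77.0% ± 9.16 (adjusted p 0.0432 in limma) and passed only without subfertile cow 1 or 4 or fertile cow 5. The ADAMTS14 region, chr28:26913064-26913671 in intron 18, read 0% in 5 subfertile cows and 37.4% in cow 4, and 0% to 97.9% in fertile cows (adjusted p 0.0463 in limma). It passed only without subfertile cow 4 or fertile cow 1.

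**Figure D5:**
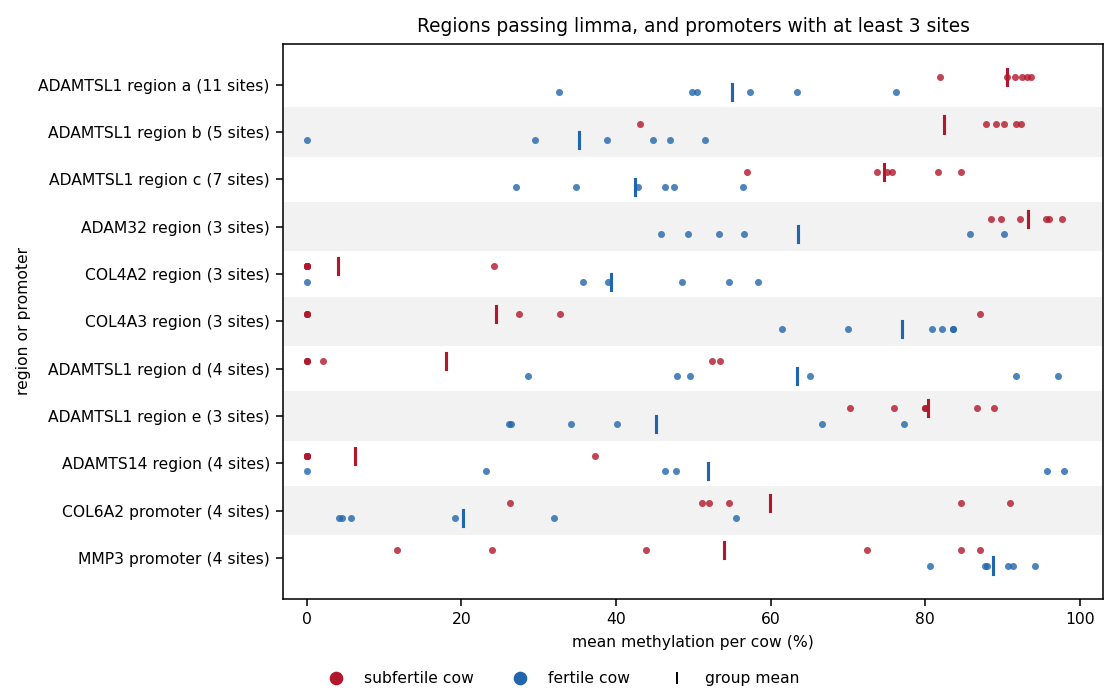
Mean methylation per cow (%, x axis) of the 9 member regions that passed limma at an adjusted p of 0.05 and of the promoters of COL6A2 and MMP3 (y axis, number of sites in parentheses). Red points are subfertile and blue points fertile cows, and ticks are group means; in ADAMTSL1 regions a and c the groups do not overlap, and in the COL4A2 and ADAMTS14 regions 5 of 6 subfertile cows are at 0%.

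At the level of sites, 0 of 645 passed an adjusted p of 0.01 in limma with a difference of at least 25 points, against 0 of 216990 overall (0%), and the smallest adjusted p of a member site was 0.0661. At an unadjusted p under 0.05, 347 member sites (53.8%) passed in limma, against 52.7% overall. The groups did not overlap at 30 member sites (4.65%, against 2.93% of all non-intergenic sites), 21 higher and 9 lower, in 17 genes. Among all non-intergenic sites without overlap, 1597 were higher and 1110 lower. ADAMTSL1 held 9 of the 30 member sites, and ADAMTSL2 and COL13A1 held 3 each. Besides those given above, the site at chr8:25594252 in intron 9 of ADAMTSL1 read 58.3% to 93.3% in subfertile and 0% to 50% in fertile cows. The site at chr11:104431436 in intron 8 of ADAMTSL2 read 0% to 77.8% in 5 subfertile cows and 90.5% to 100% in 5 fertile cows, with 2 cows lacking a value. The site at chr28:26915992 in intron 19 of ADAMTS14 was higher, 98.0% ± 3.06 against 44.8% ± 34.0, opposite to most of that gene. The site at chr12:85071716 in intron 2 of COL4A2 was also higher, 90.0% ± 9.14 against 46.2% ± 19.3, about 3.02 kb before the lower region of the same intron.

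Genes that act with the members, from a list of 87 that fold, cross-link, bind or inhibit matrix proteins or belong to the matrix, were measured alongside. A site was present in 48, and 0 of 45 tested passed an adjusted p of 0.05 in limma (0.121% of all genes), with 3 higher and 9 lower at an unadjusted p under 0.05, against 21.6% higher and 18.9% lower of all genes. Among 14 tested collagen folding and cross-linking genes, 4 were lower at an unadjusted p under 0.05 in limma (18.9% of all genes) and none higher (21.6%). LOXL1, a lysyl oxidase that cross-links elastin and collagen, was lower at 11 of 11 sites, with 41.2% ± 25.1 against 81.8% ± 13.5 and an adjusted p of 0.0699 in limma. Of 6 protease inhibitors listed, TIMP3 alone held a site, with 70.4% ± 15.9 against 51.6% ± 23.7 over 16 sites and an adjusted p of 0.237 in limma. Of 22 other matrix proteins tested, 2 were higher and 5 lower at an unadjusted p under 0.05 in limma (21.6% and 18.9% of all genes), LAMB2, a laminin chain of basement membranes, among them at 53.3% ± 7.40 against 88.1% ± 17.7 (adjusted p 0.0558).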

How the data were processed

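Whole-blood DNA of 6 subfertile and 6 fertile cows was measured by enzymatic conversion and sequencing, per the labels' protocols. Positions are on ARS-UCD1.2, and fastp 0.23.1, DRAGEN, Bismark and ChIPseeker 1.32.1 are listed in the submitters' processing notes, with no order. The deposited table gives the percent methylated per cytosine and cow, a difference in percent between groups, and the authors' p-value and q-value, per the file headers. All q-values were below 0.01, as tested on the file. It holds no read counts, so no count test could be run, and no read minimum could be set.

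Members, gene lists and tests were chosen with earlier results of these data known. Percent values were averaged per gene, promoter or region and cow, with missing values left out, and log2((percent + 5)/(100 − percent + 5)) was tested with limma 3.58.1 in R 4.3.3 (lmFit, eBayes, group as the only term), with Benjamini-Hochberg adjustment over all genes, promoters, regions or sites of the table. The log-ratio differences are on this log2 scale. The procedure was tested on simulated data with independent errors and few shifted genes. Those data were not selected for a difference, as this table was, so the simulation does not show how the procedure behaves here. Nothing says that cows were sampled in batches, and cow numbers within a group are names that pair no cows.

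Genes are named when a region or mean of theirs passed without overlap, when they were among the 10 with the most sites or in the promoter test, or when they had the most sites or the smallest p of their class, which gave 22. Other genes were named after their values were seen. Alternatives were the points added, plain percent, stricter or fewer sites, other gene assignment, strands averaged, region spacing and leaving out each cow. RefSeq symbols matched all 52 members by gene ID. Its table is of another assembly and gave names only, and no sequence is printed.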

Additional observations from a re-analysis of the deposited data

Results flagged for a closer look

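Among 66 groups of 6 cows tested, over the named genes and the regions and promoters that were described, 9 held 1 cow far from the other 5. Chance flags about 1 in 20 separate groups, but these groups share sites. The gene means of ADAM32, ADAMTS14, ADAMTSL1 and COL4A3 include the sites of their regions. Those of MMP3 and COL6A2 include the sites of their promoters. The number of flags was therefore not compared with that rate. In fertile cows, the ADAM10 mean was 54.6% in cow 6 against 95.5% to 100% in the others, the COL5A2 mean was 51.3% in cow 6 against 77.3% to 91.7%, and the ADAMTSL2 mean was 84.0% in cow 3 against 90.2% to 93.0%. In subfertile cows, the COL6A3 mean was 0% in cow 3 against 42.3% to 56.6%, and the ADAMTS14 mean was 51.4% in cow 4 against 24.3% to 32.8%. Subfertile cow 4 also read 37.4% in the ADAMTS14 region where the other 5 read 0%, and subfertile cow 1 read 24.2% in the COL4A2 region where the other 5 read 0%. Subfertile cow 6 was the lowest in both ADAMTSL1 regions a and b, at 81.8% against 90.5% to 93.6% and at 43.2% against 87.8% to 92.4%.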

How the results depend on the processing

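The count of members whose gene mean passed in limma was 0 under every alternative, leave-outs included, except that it was 14 with deposited differences of at least 40 points and 17 without wide-range sites. Between 5 and 65 of all genes passed when a cow was left out. Promoters passing numbered 1, and 0 with 1 point added, with at least 1 promoter site, with differences of at least 40 points or without wide-range sites (no member could be tested in the last pair). Leaving out a cow gave 0 to 1, where promoters of all genes that passed fell to between 4 and 182. Regions passing numbered 9, and 1 with 1 point added, 16 on plain percent, and 3 to 9 when a cow was left out, where regions passing overall fell to between 1039 and 2813. For 1 point added and for plain percent the share of all regions is not given. No member site passed under any setting run. Among single genes and regions, 514 alternative values kept their direction and side of the threshold, 18 newly passed, 81 no longer passed and 9 changed sign. The sign changes were ADAMTS2 (0.37) and COL4A1 (-0.054) with the nearest gene symbol, COL5A2 without wide-range sites (1.98), MMP16 at 40 points (3.61), and COL8A1 at 40 points (0.56), without wide-range sites (0.033), with strands averaged (0.057), without subfertile cow 2 (0.0042) and without fertile cow 3 (0.16), with -0.20 to 0.16 over its leave-outs. The cause was not tested, except that COL5A2 kept 1 site and that the cut at 40 points could keep only higher sites of MMP16. Assigning the 13 sites whose host gene has no symbol to the nearest symbol, chosen after seeing the data, changed no call. Depth is unknown, so the limit it sets cannot be given.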
